A study of Arabidopsis thaliana with 9 samples.

Results

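The tropinone reductase-like genes studied here form a tandem cluster of short-chain dehydrogenase genes on *Arabidopsis* chromosome 2. They were listed as 10 loci, AT2G29150, AT2G29170, AT2G29290, AT2G29310, AT2G29320, AT2G29330 (*TRI*), AT2G29340, AT2G29350 (*SAG13*), AT2G29360 and AT2G29370. For 9 of the 10 loci the array annotation names a probe set of their own, which makes 9 of the 22746 probe sets tested, and none of these probe sets is shared with another gene. *SAG13* has no probe set named here and was not analysed here. The annotation gives no gene for 8730 probe sets, so a gene counted here or below as not named can still have a probe set on the array. The cluster was chosen by its place around *TRI*, which was already known from these same arrays to give a lower signal in the near isogenic line (NIL) than in L*er*. The genotype differences of all members are therefore given as a description, with standard errors and intervals. How many members passed the thresholds of the fit is given beside the share of all probe sets that did, and supports nothing about the cluster.

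Root tips of the natural accessions Cape Verde Islands (Cvi-1, here Cvi) and Landsberg *erecta* (L*er*-2, here L*er*) and of the NIL 170G-55-16, also called HGI2.1, were each measured on 3 ATH1 arrays. Each array holds RNA of about 600 pooled root tips of 7 mm from seedlings aged 5 d, which had stood upright for 2 d and tilted back by 30° for 3 d on hard agar. All 3 genotypes had the same growth conditions, and the labels name no chemical treatment for any of them. The labels and methods used here do not say which segments of the NIL genome are of Cvi origin. Pooled tips give 1 value per array, so fewer cells that use a gene and less RNA per cell cannot be told apart.

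Short-chain dehydrogenases are enzymes that oxidize or reduce alcohols and carbonyl groups with the help of NAD(H) or NADP(H). The cluster is named after the tropinone reductases of Solanaceae, which reduce tropinone at a branch point of tropane alkaloid synthesis. For most of the *Arabidopsis* genes of this cluster no substrate in the plant is established, and *SAG13* is known as a gene that becomes active in senescing leaves.

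Each value below is a hybridization signal that the authors had normalized between arrays, and differences were taken on the log2 scale in 1 limma fit to all 9 arrays. A call required both a 2-fold or larger difference and an adjusted p under 0.05 (Benjamini-Hochberg, over the 22746 probe sets). Array medians lay between 109.9 and 122.3. Cvi array 1 stood apart. At 4.55% of the probe sets its signal was 2-fold or more away from the mean of its group without it, a share that was 0.0176% to 0.202% on the other 8 arrays. For *TRI*, AT2G29320 and AT2G29340 the differences that involve Cvi are given with and without it. The same holds for differences of listed genes outside the members whose call it changed. Other values include it unless stated. Of 14 listed root marker genes 2 are named on the array, the root hair expansin gene *EXPA7* and AT2G21045. Their summed signal was 2135 to 3490 in Cvi, 2675 to 3094 in the NIL and 3090 to 3318 in L*er*. None of 17 listed shoot photosynthesis genes is named, so shoot tissue was not checked.

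*TRI* was the member with the largest difference between genotypes, and its signal was high in L*er* alone. The L*er* arrays gave *TRI* signals of 407.7, 395.9 and 395.0 for replicates 1, 2 and 3. The Cvi arrays gave 48.6, 74.5 and 73.0, and the NIL arrays gave 65.6, 60.8 and 53.5. Every L*er* array therefore lay far above the highest Cvi or NIL array. The Cvi and NIL arrays overlapped through Cvi array 1 alone, since the other Cvi arrays lay above all NIL arrays.
On the log2 scale the *TRI* signal was 8.642 ± 0.026 in L*er*, 6.004 ± 0.348 in Cvi and 5.902 ± 0.149 in the NIL (SD, n = 3 arrays each). The difference between Cvi and L*er* was −2.64 (standard error 0.16, 95% confidence interval −2.99 to −2.28), which is 6.23-fold. The difference between the NIL and L*er* was −2.74 (standard error 0.16, 95% confidence interval −3.10 to −2.39), which is 6.68-fold. From Cvi to the NIL it was −0.10, with an interval from −0.46 to 0.25 that holds 0.
By size in either direction, *TRI* ranked 5 of all 22746 probe sets between the NIL and L*er* and 99 between Cvi and L*er*. Set between L*er* at 0 and Cvi at 1, the NIL lay at 1.04. Cvi array 1 had the lowest *TRI* signal of all 9 arrays. Without it the difference between Cvi and L*er* was −2.44. That between the NIL and Cvi was then −0.30 (standard error 0.1, adjusted p = 0.0587 from limma), where the adjusted p with all arrays was 0.766 from limma. Bases that differ between the accessions under the probes were not compared, and their part in these signals was not tested.

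**Figure D1:**
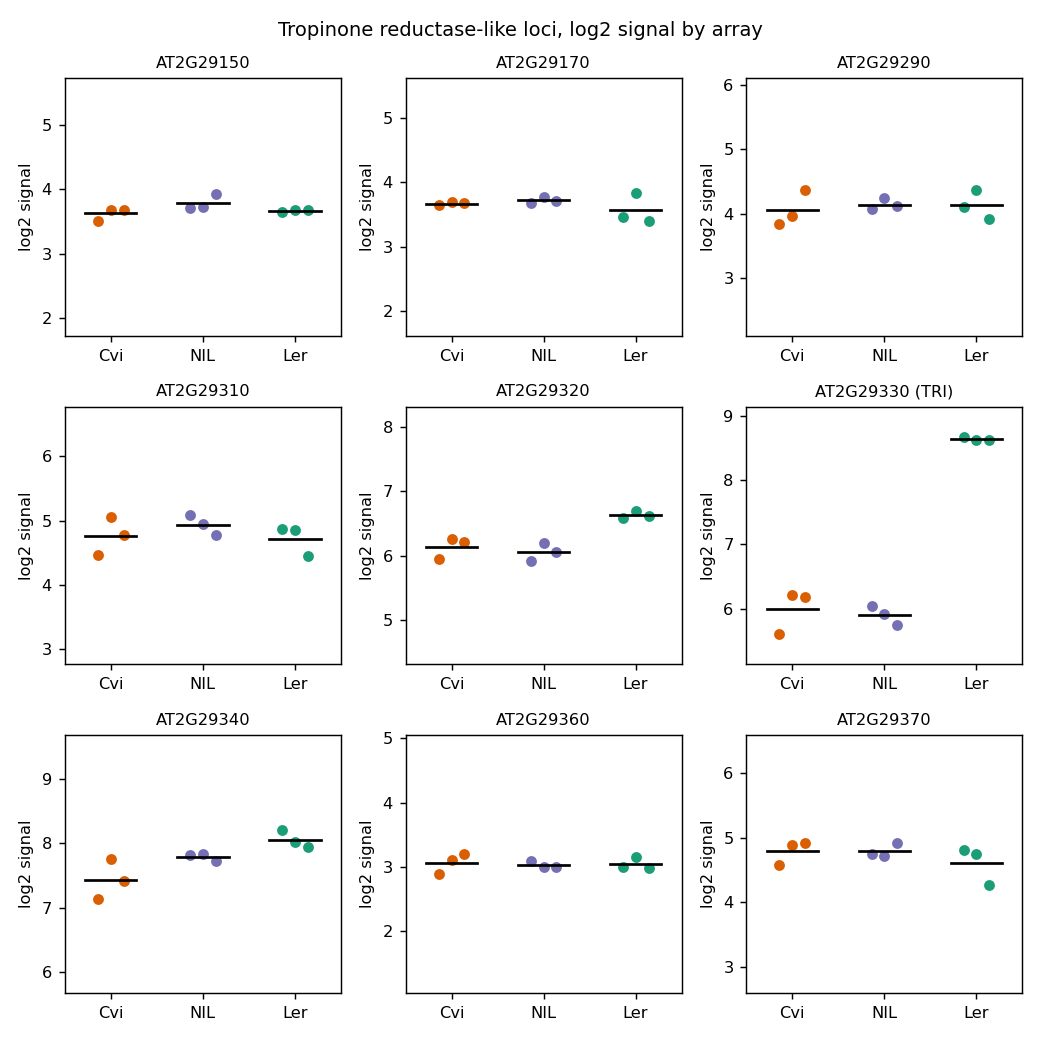
Log2 hybridization signal of the 9 member probe sets on each array, with 1 panel per locus and the same span of 4 log2 units in each. Points are arrays (replicates 1 to 3 from left to right) and bars are means of 3 arrays. *TRI* has its 3 L*er* points near 8.64 and all other points between 5.60 and 6.22, while 6 loci lie flat.

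The genes on either side of *TRI* also gave their highest signals in L*er*, with smaller differences. AT2G29320, the locus just before *TRI* in gene order, had signals of 96.4, 103.8 and 97.9 on the L*er* arrays. It had 61.7, 76.3 and 73.9 on the Cvi arrays and 60.6, 73.6 and 66.2 on the NIL arrays. As for *TRI*, the L*er* arrays stood above all others, and the Cvi and NIL arrays overlapped through Cvi array 1 alone.
The difference of AT2G29320 was −0.50 between Cvi and L*er* (standard error 0.12, 95% confidence interval −0.76 to −0.24), or 1.41-fold. It was −0.58 between the NIL and L*er* (standard error 0.12, 95% confidence interval −0.83 to −0.32), or 1.49-fold. The NIL lay −0.08 from Cvi, and the interval from −0.34 to 0.18 holds 0. Without Cvi array 1, Cvi lay below L*er* by a difference of −0.40, and the NIL lay −0.17 from Cvi.
AT2G29340, the locus just after *TRI*, had signals of 296.3, 258.1 and 246.0 in L*er*. It had 140.8, 214.9 and 170.4 in Cvi and 224.8, 227.4 and 211.3 in the NIL. The L*er* arrays again stood above the rest, but here the NIL lay between the parents, with its lowest array just under the highest Cvi array.
For AT2G29340 the difference between Cvi and L*er* was −0.62 (standard error 0.15, 95% confidence interval −0.95 to −0.29), or 1.54-fold. The NIL lay −0.27 from L*er* (95% confidence interval −0.60 to 0.06) and 0.36 from Cvi (95% confidence interval 0.03 to 0.69). Neither of these NIL differences passed the adjusted p, which was 0.179 against Cvi (limma). With L*er* at 0 and Cvi at 1, the NIL position was 0.43. Cvi array 1 had the lowest signal of this locus too, and without it the difference was −0.48 between Cvi and L*er* and 0.21 between the NIL and Cvi.

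The other 6 measured members had low signals in every genotype and showed no such pattern. These are AT2G29150, AT2G29170, AT2G29290, AT2G29310, AT2G29360 and AT2G29370, short-chain dehydrogenase genes of the same cluster. Their signals lay between 7.40 and 34.1 on all 9 arrays. On the log2 scale each was below 5.37 on every array, which bounds the third of all probe sets ranked lowest by mean signal. A difference in transcript level can be hidden in such signals, and no detection call was used.
Over these 6 loci the difference between Cvi and L*er* ran from −0.08 for AT2G29290 to 0.18 for AT2G29370. All 6 of the 95% confidence intervals hold 0, and the widest reached 1.44-fold. For the NIL against L*er* the differences ran from −0.02 for AT2G29360 to 0.22 for AT2G29310, and the intervals held 0 and reached 1.51-fold. For the NIL against Cvi they ran from −0.03 to 0.18, with intervals that hold 0 and reach 1.47-fold.
AT2G29310 had the largest range of the 6, with log2 signals from 4.44 to 5.09. Its Cvi signals were 22.1, 33.1 and 27.3, its NIL signals 34.1, 30.9 and 27.3 and its L*er* signals 29.2, 28.9 and 21.8, so that all genotypes overlapped. AT2G29370 had 23.9, 29.8 and 30.1 in Cvi, 26.8, 26.5 and 30.2 in the NIL and 28.2, 26.9 and 19.3 in L*er*. Here the lowest array was L*er* array 3, and the groups overlapped.
AT2G29360 had the lowest signals of the cluster and the narrowest range, from 2.89 to 3.20 on the log2 scale. AT2G29150 gave the same signal, 12.9, on 4 of the 9 arrays, and its 3 NIL arrays, at 13.1, 13.3 and 15.3, lay above all others by a small step. A repeated signal among the 9 arrays occurs at 43.0% of all probe sets, so equal values are common in this table. AT2G29170 had log2 signals from 3.39 to 3.84, and its lowest and highest signals were both on L*er* arrays. AT2G29290 had 3.84 to 4.37, with its lowest signal on a Cvi array and its highest on an L*er* array.

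**Figure D2:**
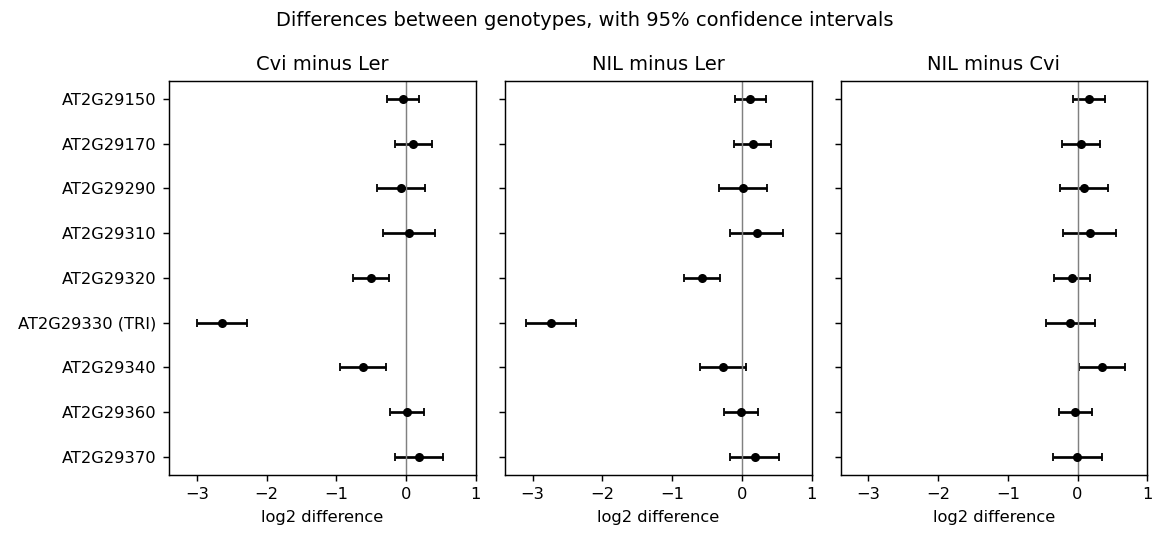
Differences in log2 signal between genotypes for the 9 member probe sets, from the limma fit to 9 arrays. Points are differences and bars 95% confidence intervals; *TRI* lies at −2.64 and −2.74 against L*er*, AT2G29320 and AT2G29340 lie below 0 in the first panel, and no member lies beyond 0.36 between the NIL and Cvi.

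Counted over the cluster, 1 of 9 members, *TRI*, was called between Cvi and L*er*, where 3.88% of all probe sets were called. For the NIL against L*er* it was again *TRI* alone, beside 0.189% of all probe sets. By limma 0 of 9 members were called between the NIL and Cvi, beside 3.39% of all probe sets, and 1 of 9 had an unadjusted p under 0.05, beside 23.4% of all probe sets. An unadjusted p under 0.05 was held by 24.9% of all probe sets between Cvi and L*er* and by 3.84% between the NIL and L*er*.
At any fold, 3 of 9 members passed the adjusted p between Cvi and L*er*, all lower in Cvi, namely *TRI*, AT2G29320 and AT2G29340. The same rule took 13.0% of all probe sets in this comparison. It took 1 of 9 members between the NIL and L*er*, beside 0.356% of all, and 0 of 9 between the NIL and Cvi, beside 10.8% of all. These counts depend on the arrays used. Between Cvi and L*er*, AT2G29320 failed when any 1 of the L*er* arrays was left out. AT2G29340 failed there in a fit of the 6 arrays compared and without Cvi array 3, L*er* array 1 or L*er* array 2. Passes were gained too. AT2G29320 passed between the NIL and L*er* in a fit of the 6 arrays compared and without Cvi array 1. AT2G29340 passed between the NIL and Cvi without Cvi array 2.
The arrays of Cvi and L*er* did not overlap at 3 of 9 members, as at 27.2% of all probe sets. Those of the NIL and L*er* did not overlap at 4 of 9, with 3 lower and AT2G29150 higher in the NIL, as at 13.6% of all. Those of the NIL and Cvi did not overlap at 1 of 9, AT2G29150, as at 26.5% of all. Because *TRI* was known when the cluster was picked, nothing is read from these shares. The median difference of the 9 members was −0.05 between Cvi and L*er*, 0.01 between the NIL and L*er* and 0.05 between the NIL and Cvi, beside 0.01, −0.02 and −0.02 over all probe sets. Both comparisons with L*er* share the same L*er* arrays.

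Members differed in how far they followed *TRI* over the 9 arrays. The correlation with *TRI* was r = 0.942 for AT2G29320 and r = 0.732 for AT2G29340. For the 6 members of low signal it ran from −0.459 for AT2G29170 to 0.137 for AT2G29290. These values describe 9 arrays in 3 genotypes, of which L*er* stands apart, and carry no test.
Among 2498 other probe sets with 1 gene and a range of at least 1 on the log2 scale, the 5 with the highest correlation with *TRI* are all genes of chromosome 2. They are the peroxidase gene AT2G39040 (r = 0.994), AT2G32150 (r = 0.993), AT2G30530 (r = 0.992), the serine carboxypeptidase-like gene *scpl26* (AT2G35780, r = 0.990) and AT2G23400 (r = 0.989), each over 9 arrays. For all 5 the L*er* arrays lay above every Cvi and NIL array. AT2G39040 had signals of 1378 to 1550 in L*er*, 41.2 to 68.8 in Cvi and 68.8 to 72.5 in the NIL. *scpl26* had 284.4 to 305.1 in L*er*, 44.0 to 52.7 in Cvi and 48.5 to 55.4 in the NIL. AT2G32150 differed less, with 1909 to 2084 in L*er*, 822.4 to 1071 in Cvi and 954.0 to 1012 in the NIL.
The NIL position between L*er* at 0 and Cvi at 1 was 0.93 to 1.03 for these 5 genes, beside 1.04 for *TRI*. That genes which differ between the NIL and L*er* lie mostly on chromosome 2 was known from these arrays before, so this likeness adds no support of its own.

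**Figure D3:**
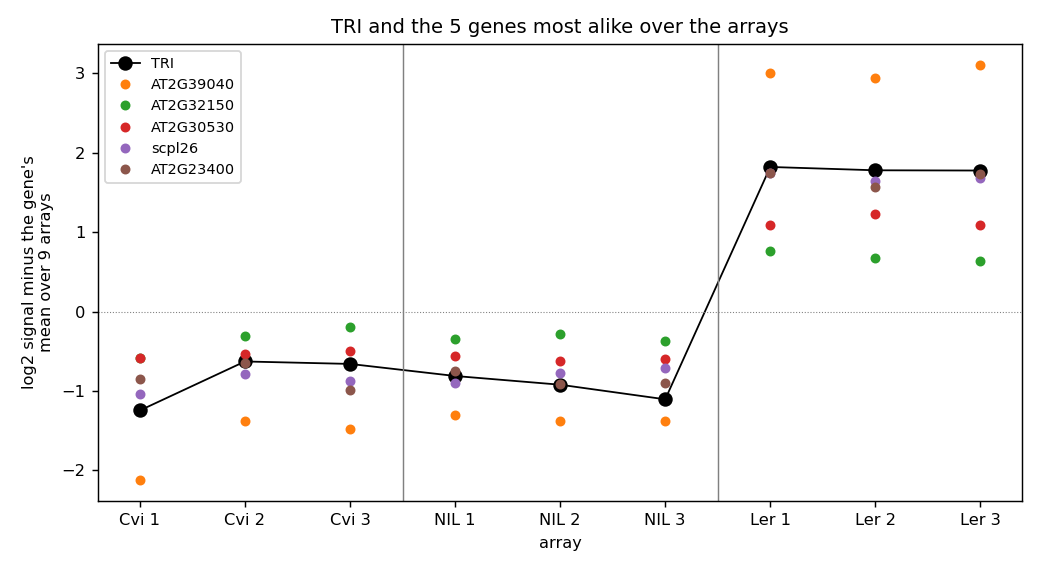
Log2 signal of *TRI* (black, joined) and of the 5 genes with the most similar pattern on each of the 9 arrays, after each gene's mean over the arrays was subtracted. All 6 genes lie above 0 on the 3 L*er* arrays and below 0 on the Cvi and NIL arrays, and AT2G39040 has the widest range.

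In gene order *TRI* and the members beside it that were also lower in Cvi, AT2G29320 and AT2G29340, follow each other, and most measured genes around them were not called. From AT2G29000 to AT2G29500 the gene table used here holds 58 genes, of which 22 are named on the array, the 9 members and 13 neighbours. Of the 13 neighbours, limma called 1 as lower and 0 as higher between Cvi and L*er*, and the same between the NIL and L*er*. This was AT2G29500, a small heat shock protein gene that lies 19 genes after *TRI*. It gave signals of 140.8, 150.4 and 206.6 in L*er*, 20.8, 25.5 and 27.9 in Cvi and 26.9, 29.2 and 28.6 in the NIL.
The difference of AT2G29500 was −2.74 between Cvi and L*er* (limma, standard error 0.16, adjusted p = 1.27e-06) and −2.53 between the NIL and L*er* (limma, standard error 0.16, adjusted p = 2.94e-05). All 6 Cvi and NIL signals of AT2G29500 lay below the low bound of 5.37 on the log2 scale. With log2 of the signal plus 16 its differences were −2.15 between Cvi and L*er* and −2.02 between the NIL and L*er*. The remaining 12 neighbours, among them the glutamate receptor genes *GLR2.7*, *GLR2.8* and *GLR2.9*, were not called. Their differences ran from −0.49 for AT2G29260 to 0.23 for AT2G29210 between Cvi and L*er*. The median of the 13 neighbours was 0.11 between Cvi and L*er* and 0.02 between the NIL and L*er*, beside 0.01 and −0.02 over all probe sets. Limma called 0 of 13 between the NIL and Cvi, and 0 had an unadjusted p under 0.05. That mark was passed by 3 of 13 between Cvi and L*er* and by 2 of 13 between the NIL and L*er*. Over all probe sets 24.9% and 3.84% passed it, and 3.88% and 0.189% were called. Between the NIL and Cvi these shares were 23.4% and 3.39%.

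**Figure D4:**
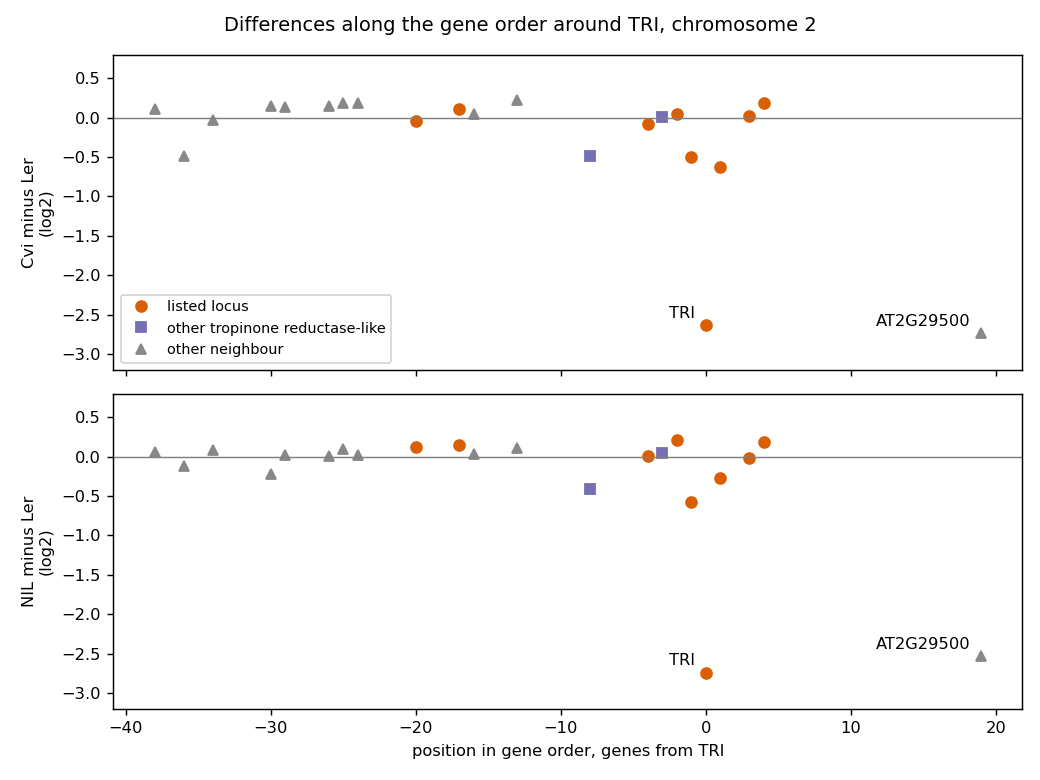
Difference in log2 signal between Cvi and L*er* (upper panel) and between the NIL and L*er* (lower panel) against the position of each measured gene in gene order, counted in genes from *TRI*, from AT2G29000 to AT2G29500. *TRI* and AT2G29500, 19 genes further on, lie below −2.5 in both panels, and the other genes lie between −0.62 and 0.23.

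Other genes of the tropinone reductase-like family were compared with the same fit. All 6 listed genes outside the 10 loci are named on the array, and 2 of them, AT2G29260 and AT2G29300, stand inside the cluster and are also counted among the 13 neighbours. By limma 0 of 6 were called in any of the 3 comparisons. With an unadjusted p under 0.05 there were 2 between Cvi and L*er*, 1 between the NIL and L*er* and 1 between the NIL and Cvi. Over all probe sets these shares were 24.9%, 3.84% and 23.4%, and 3.88%, 0.189% and 3.39% were called. The median difference of the 6 was 0.05, 0.02 and 0.03 in these comparisons.
AT5G06060, a tropinone reductase-like gene of chromosome 5, was higher in Cvi than in either of the other genotypes, by less than 2-fold. Its signals were 287.1, 443.6 and 480.6 in Cvi, 208.0, 219.8 and 228.4 in the NIL and 208.3, 228.4 and 205.5 in L*er*, so that every Cvi array lay above all others and the NIL and L*er* arrays overlapped. The difference was 0.88 between Cvi and L*er* (standard error 0.17, adjusted p = 0.00626 from limma) and −0.85 between the NIL and Cvi (standard error 0.17, adjusted p = 0.00909 from limma). Without Cvi array 1, the lowest of the Cvi arrays, these were 1.11 and −1.08 and the gene was called in both comparisons. Its NIL signal lay near that of L*er*, at a difference of 0.03, where that of *TRI* lay near Cvi.
AT2G29260 had signals of 116.9, 116.6 and 128.8 in L*er*, 77.4, 95.9 and 85.3 in Cvi and 109.5, 95.5 and 72.0 in the NIL. The L*er* arrays were again the highest, with a difference of −0.49 between Cvi and L*er* (adjusted p = 0.0628 from limma) and −0.41 between the NIL and L*er* (adjusted p = 1 from limma), and neither passed. AT2G29300 at 0.01, AT1G07440 at 0.12, AT1G07450 at 0.08 and AT2G30670 at −0.03 between Cvi and L*er* did not pass either (adjusted p of 0.674 or more from limma).

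**Figure D5:**
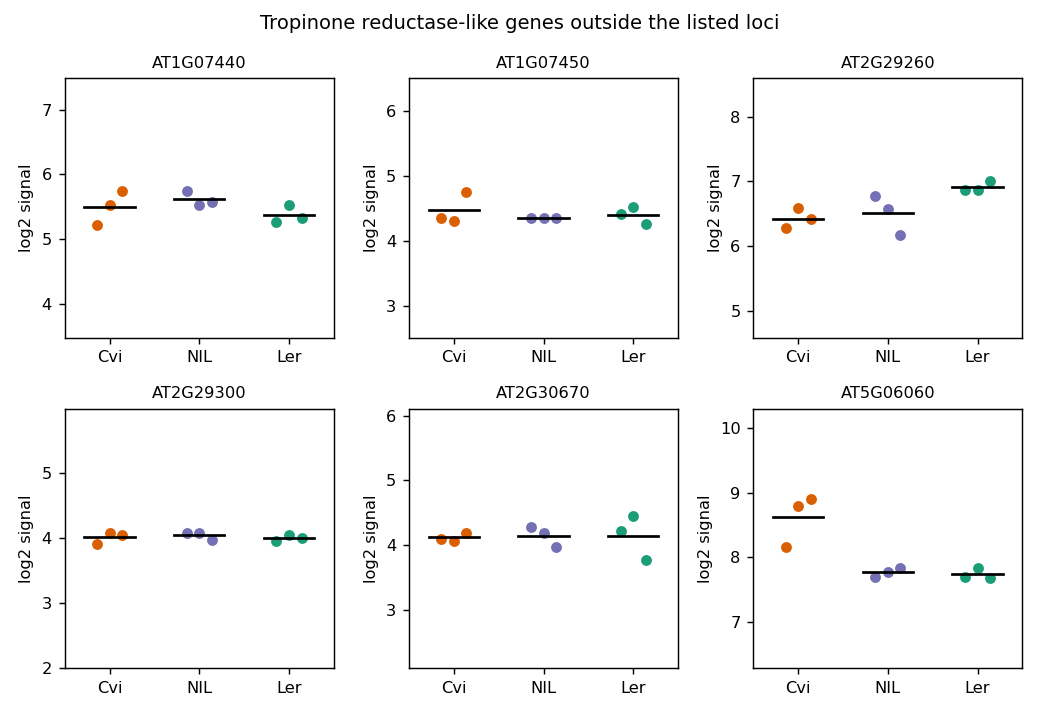
Log2 hybridization signal of 6 tropinone reductase-like genes outside the listed loci on each array, with the same span of 4 log2 units in each panel. Points are arrays (replicates 1 to 3 from left to right) and bars are means of 3 arrays. AT5G06060 is highest on the 3 Cvi arrays and AT2G29260 on the 3 L*er* arrays, and the other 4 genes overlap.

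Among 34 listed short-chain dehydrogenase genes of other families, 13 are named on the array with 14 probe sets. For Cvi against L*er*, limma called 1 of the 14 as lower and 0 as higher, and it called 0 of 14 between the NIL and L*er*, where 0 had an unadjusted p under 0.05. For Cvi against L*er* 5 of 14 had one, and for the NIL against Cvi 4 of 14. Over all probe sets 24.9% and 23.4% had one, and 3.88% and 3.39% were called. Between the NIL and L*er* these shares were 3.84% and 0.189%. The called gene was AT1G01800, with a difference of −1.19 between Cvi and L*er* (standard error 0.13, adjusted p = 1.86e-04 from limma) and 1.14 between the NIL and Cvi (standard error 0.13, adjusted p = 3.03e-04 from limma). This gene was 1 of 14 called between the NIL and Cvi, but without Cvi array 1 this difference was 0.99, under 2-fold. The median difference of this list was −0.11 between Cvi and L*er*, −0.03 between the NIL and L*er* and 0.06 between the NIL and Cvi.
Tau glutathione transferases conjugate reactive compounds, and some of their genes lie in tandem just beyond this cluster on chromosome 2. Of 28 listed genes 11 are named, and all 11 are on other chromosomes. Between Cvi and L*er* limma called 1 higher and 1 lower in Cvi. *GSTU15* was higher by 3.03 (standard error 0.14, adjusted p = 2.26e-07 from limma) and *GSTU28* lower at −1.32 (standard error 0.19, adjusted p = 0.00107 from limma). Both were also called between the NIL and Cvi, where Cvi was again higher for *GSTU15* and lower for *GSTU28*. The NIL lay −3.32 from Cvi for *GSTU15* (adjusted p = 1.35e-07 from limma) and 1.20 for *GSTU28* (adjusted p = 0.00231 from limma). Without Cvi array 1 the *GSTU28* difference was 0.95, under 2-fold. The *GSTU15* signals were 187.7 to 214.3 in Cvi but only 21.5 to 26.7 in L*er* and 17.2 to 23.6 in the NIL, all 6 below the low bound of 5.37 on the log2 scale. With log2 of the signal plus 16 its differences were 2.41 and −2.58. Against L*er*, 0 of 11 were called in the NIL, and 0 had an unadjusted p under 0.05. Such a p was held by 8 of 11 between Cvi and L*er* and 7 of 11 between the NIL and Cvi. Over all probe sets 24.9% and 23.4% held one, and 3.88% and 3.39% were called. Between the NIL and L*er* these shares were 3.84% and 0.189%. The median difference of the 11 was 0.07 between Cvi and L*er*, 0.03 between the NIL and L*er* and 0.11 between the NIL and Cvi.
Senescence and detoxification genes were listed because *SAG13* is a senescence marker, and 8 of 27 are named, among them *SAG29*, *SAG101*, *WRKY6* and *WRKY53*. By limma 0 of 8 were called in any comparison. The count leaves out the listed gene *NAC032* (AT1G77450), which the annotation used here does not name. A paper that used these arrays reports its signal as 2-fold higher in L*er* than in Cvi. With an unadjusted p under 0.05 there were 4 between Cvi and L*er*, 0 between the NIL and L*er* and 3 between the NIL and Cvi. Over all probe sets these shares were 24.9%, 3.84% and 23.4%, and 3.88%, 0.189% and 3.39% were called. *SAG101* was lower in Cvi than in L*er* by less than 2-fold, at −0.64 (adjusted p = 0.0111 from limma). Its signal lay below the low bound of 5.37 on the log2 scale on 6 arrays, among them all Cvi arrays. The median difference of the 8 was 0.02, −0.05 and −0.03 in these comparisons.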

How the data were processed

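The authors deposited 1 intensity per probe set and array, a linear hybridization signal normalized between the 9 arrays. MAS5 and RMA stand in the submitters' processing notes without a role or a version. The table holds 22810 probe sets, of which 64 controls were left out. Gene names came from the platform annotation (1 gene for 13513, several for 503, none for 8730) and its gene identifiers through the TAIR10.1 gene table, which served for names and gene order only. No coordinates or sequences were used.

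Genotype alone entered a linear model of the log2 signal on all 9 arrays (limma 3.58.1, R 4.3.3), with Benjamini-Hochberg adjustment over 22746 probe sets. The fit was also run on simulated data with the same spread for every probe set and no array that stands apart. Such data cannot show how the fit behaves on the arrays measured here. The number of arrays limits the precision. An exact permutation test of 3 arrays against 3 allows no p below 0.1 and was not used. The labels call the arrays biological replicates.

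The members, lists, tests and alternatives were chosen with earlier results of these data known. Named genes are all members, the tropinone reductase-like genes outside them, up to 4 called genes per list and comparison, and the 5 genes most correlated with each called member (range of at least 1 on the log2 scale). The lists are tropinone reductase-like genes outside the listed loci, other short-chain dehydrogenases, neighbours on chromosome 2, tau glutathione transferases, senescence and detoxification, and root and shoot markers. The alternatives tried were log2 of the signal plus 16, quantile normalization, a filter that drops the third of all probe sets ranked lowest by mean signal, a block on the replicate number, a model of only the 6 arrays of a comparison, eBayes with trend and robust settings, each array left out in turn, and calls at any fold or at 1.5-fold.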

Additional observations from a re-analysis of the deposited data

How the results depend on the processing

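The *TRI* difference ran from −2.75 to −2.37 between Cvi and L*er* and from −2.81 to −2.45 between the NIL and L*er* over the alternatives. These refits use the arrays on which *TRI* was already known to differ, so they show the effect of the settings and are no further support. The smallest sizes came with log2 of the signal plus 16 (−2.37 and −2.45), which shrinks differences of low signals by construction. With the replicate number as a block, the members called were 1 for Cvi against L*er*, 1 for the NIL against L*er* and 0 for the NIL against Cvi, as without it, and the block changed no other call named here. The numbers did not pair the arrays throughout. Of 9 same-numbered pairs, 1 correlated above 0.1 in their deviations from the group means (−0.259 to 0.232). In both other groups at once, 1 of 9 arrays correlated best with its own number. Between the NIL and L*er* alone, each array did correlate best with its own number, at 0.0277, 0.056 and 0.0551 for replicates 1, 2 and 3. Between Cvi and L*er*, 3 members passed at any fold and 2 at 1.5-fold, against 1 at 2-fold. At any fold and between Cvi and L*er*, AT2G29320 passed in 12 of 15 alternative fits, failing without any 1 of the L*er* arrays, and AT2G29340 in 11 of 15, failing with the 6 arrays compared and without Cvi array 3, L*er* array 1 or L*er* array 2. Passes were also gained, for AT2G29320 between the NIL and L*er* in 2 of 15 (the 6 arrays compared and without Cvi array 1) and for AT2G29340 between the NIL and Cvi in 1 of 15 (without Cvi array 2). With 1 array left out, members called stayed at 1, 1 and 0. Among the lists, leaving out Cvi array 1 moved 4 counts and no other array moved any. These are tropinone reductase-like genes outside the loci, from 0 to 1 both between Cvi and L*er* and between the NIL and Cvi, other short-chain dehydrogenases from 1 to 0 and tau glutathione transferases from 2 to 1, both between the NIL and Cvi. Of the member differences under alternatives, 385 moved by less than the spread between replicates and 2 by more, both of *TRI* and given above. The 6 members of low signal have no value once the lowest signals are filtered out. Their low signals limit what can be seen there.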
